A study of Homo sapiens with 8 samples.

Results

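The expression of 9 genes encoding matricellular and adhesive glycoproteins was measured in the human neuroblastoma line SH-SY5Y: SPARC, SPOCK1, THBS1, THBS2, THBS3, TNC, FN1, POSTN and FBLN1. They were selected by name from the 47591 entries of the table with measured values of these libraries already known, so their levels are given as a description, with no test. Each of the 9 names had 1 entry. Of these genes, 6 averaged 10 or more normalized counts across the 8 libraries and entered the fit, namely SPARC, SPOCK1, THBS2, THBS3, TNC and FBLN1. The other 3, THBS1, FN1 and POSTN, were at or near 0.

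The libraries were 3 of the G2 line, made with CRISPR/Cas9 and a guide against the splicing factor gene PRPF40B, 3 of the scramble line (SCR), made in the same way with a control guide, and 2 of unedited wild-type (WT) cells. G2 and SCR were selected and kept in puromycin and WT was not, and all were grown in medium with serum. Colonies were raised by limiting dilution and G2 stands for 1 guide and 1 line, so the edit and the history of the line cannot be told apart. PRPF40B, measured first as a check of the labels, was at 866 ± 44.5 normalized counts in G2 (SD, n = 3), 1676 ± 8.79 in SCR (SD, n = 3) and 1820 ± 215 in WT (SD, n = 2). It was lower in G2 by limma (log2 fold change against SCR -0.95, SE 0.08, adjusted p = 7.4e-07) and lower in 3 of 3 libraries than all 5 controls (exact two-sided permutation p = 0.018, the smallest that 56 groupings can give). Recovered totals ran from 59804395 to 81080747 counts per library.

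Matricellular proteins are secreted into the matrix but mostly serve to tune how cells hold on to it rather than to bear load. SPARC binds collagen and calcium and is a classic counter-adhesive protein, and thrombospondins and tenascins bind integrins and other surface receptors. Fibronectin is the main adhesive glycoprotein of provisional matrix, and periostin and fibulins link matrix components to each other. In neuroblastoma such genes belong mostly to the mesenchymal state and to the stroma, while SH-SY5Y is known as a largely adrenergic line.

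The promoter sequences are shown for the 3 genes with the largest differences between G2 and the controls, SPARC, TNC and THBS2, and for THBS1, the paralogue of THBS2 that was at or near 0. Each line holds the 150 bases before the annotated start in RefSeq (GRCh38.p14), written 5′ to 3′ along the gene. Capitals mark matches of the 5 motifs searched on both strands, and a match on the opposite strand reads as its reverse complement.
SPARC promoter (chr5:151686916-151687065, minus strand): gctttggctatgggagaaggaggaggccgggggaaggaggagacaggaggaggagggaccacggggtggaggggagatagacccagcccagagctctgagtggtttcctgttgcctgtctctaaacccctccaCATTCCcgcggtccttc
TNC promoter (chr9:115118158-115118307, minus strand): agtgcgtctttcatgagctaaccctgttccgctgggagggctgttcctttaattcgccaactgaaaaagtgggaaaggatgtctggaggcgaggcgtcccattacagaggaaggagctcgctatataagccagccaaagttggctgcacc
THBS2 promoter (chr6:169253847-169253996, minus strand): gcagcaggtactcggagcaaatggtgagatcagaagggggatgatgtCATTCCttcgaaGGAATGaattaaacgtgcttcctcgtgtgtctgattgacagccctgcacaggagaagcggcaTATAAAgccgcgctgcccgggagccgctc
THBS1 promoter (chr15:39580929-39581078, plus strand): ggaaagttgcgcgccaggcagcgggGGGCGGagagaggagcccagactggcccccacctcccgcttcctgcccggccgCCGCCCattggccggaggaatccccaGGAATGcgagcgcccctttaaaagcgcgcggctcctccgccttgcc

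Of the 9 genes, 8 matched a promoter entry, with 9 windows in all since THBS3 has 2 starts. SPOCK1 had no entry. The windows searched run from 250 bases before to 50 bases after the start, and 35116 such windows in the genome gave the background. The letters TATAAA, the core promoter box, were found in THBS2, beginning 29 bases before the start, and in POSTN, also 29 bases before, with a second match on the opposite strand 182 bases before. They are held by 11.5% of all windows. CATTCC (TEAD) was found 17 bases before the start of SPARC, 46 before that of THBS1 and at 103 and 91 before that of THBS2, against 14.03% of all windows. GGGCGG (SP1) was found in THBS1, both THBS3 windows, TNC, FN1 and FBLN1, with 6 matches in FN1 and 4 in THBS1, against 45.0% of all windows. TGANTCA (AP-1) was found in POSTN only, against 7.71%, and CAGGTG (the E-box of ZEB and SNAI factors) in 1 THBS3 window only, against 20.6%. The FN1 matches lie partly within 4 bases of each other and share letters. Of the 4 windows printed, CATTCC was thus found in those of SPARC, THBS2 and THBS1 and not in that of TNC.

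Of the 9 genes, 6 exceeded a fitted fold change of 1.5 in G2/SCR and 5 did so in G2/WT, all with G2 higher and counted by size alone. All other genes were called where the fold change was at least 1.5 and the unadjusted p of the limma fit at most 0.05. Of all 18947 genes tested, 26.9% were called in G2/SCR (15.1% higher and 11.8% lower) and 29.9% in G2/WT (17.7% higher and 12.2% lower), and since the genes were chosen on these values nothing is read from their own share. With libraries scaled to the same total, the share of the calls that were higher in G2 was 47.5% instead of 56.2% for G2/SCR, and 75.7% instead of 59.3% for G2/WT. The 6 genes had a median log2 fold change of 2.03 against SCR and 2.01 against WT, beside -0.01 and 0.00 over all genes tested. G2/SCR and G2/WT share the G2 libraries. Together the 9 genes took 0.103% to 0.106% of all normalized counts in G2, 0.0265% to 0.0284% in SCR and 0.0298% to 0.0299% in WT.

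**Figure D1:**
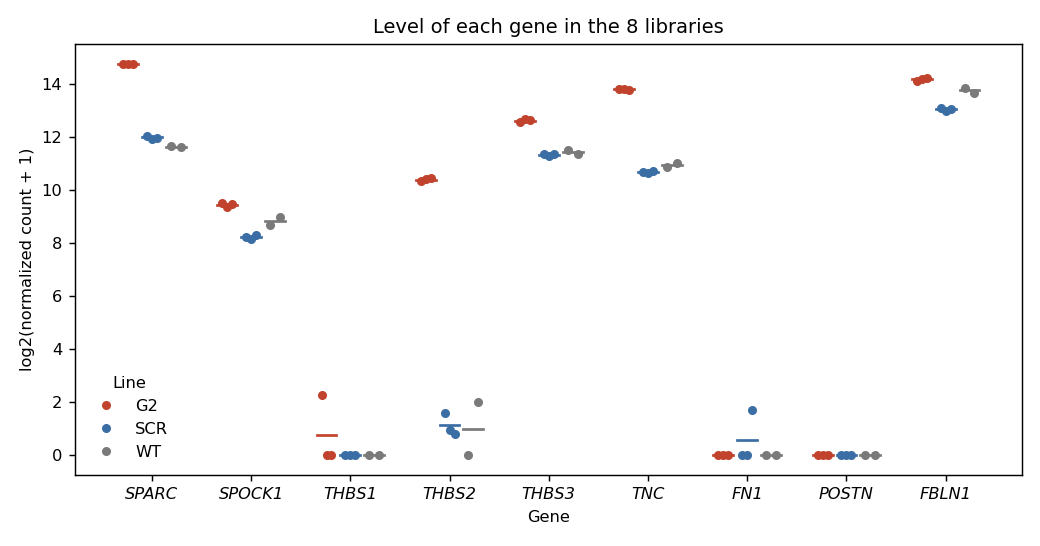
Level of each of the 9 genes as log2(normalized count + 1), with 1 point per library and a bar at the mean of each line (3 G2, 3 SCR and 2 WT libraries). The G2 points lie above all control points for SPARC, SPOCK1, THBS2, THBS3, TNC and FBLN1, while THBS1, FN1 and POSTN lie at or near 0. The genes were chosen with values of these libraries known, so nothing is read from this separation.

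SPARC, the counter-adhesive collagen-binding protein that gives the group its archetype, was the most abundant of the 9 in G2 per exon length. Its normalized counts were 27545, 27707 and 27228 in the G2 libraries, 4207, 3853 and 4009 in SCR and 3176 and 3163 in WT. The 3 lines did not overlap, and G2 stood apart from both controls by far more than the spread within a line. The G2 mean was 6.83 times the SCR mean and 8.67 times the WT mean, with log2 fold changes of 2.77 (SE 0.05) and 3.12 (SE 0.06). SPARC lies at chr5:151661096-151686956 on the minus strand of hg38, and the long noncoding entry CLMAT3, which covers 10012 bases of the same stretch, was at 0 in 7 of 8 libraries.

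SPOCK1, which encodes testican-1, a proteoglycan with a SPARC-like domain, was the least abundant of the 6 per exon length in G2. Its normalized counts were 730, 661 and 700 in G2, 297, 281 and 312 in SCR and 412 and 499 in WT. WT lay between SCR and G2 with no overlap. The G2 mean was 2.35 times that of SCR but only 1.53 times that of WT, with log2 fold changes of 1.23 (SE 0.10) and 0.62 (SE 0.11). The second of these is close to the fold limit, and without WT replicate 1 it was 0.48 and without G2 replicate 1 it was 0.58, both short of it. SPOCK1 lies at chr5:136975298-137499326 on the minus strand, on the chromosome that also holds SPARC.

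Among the thrombospondins, multimeric glycoproteins that bind integrins and other surface receptors, the 3 listed members had unlike levels. THBS2, of the trimeric subgroup, read 1280, 1348 and 1393 normalized counts in G2. In SCR it read 2.04, 0.938 and 0.756, and in WT 0 and 2.98. These control values are 4 recovered counts over the 3 SCR libraries and 3 over the 2 WT libraries, beside 3887 over the 3 G2 libraries. The G2 mean was 1076 times the SCR mean, with a counting interval (95%, exact) of 434 to 4076, and 900 times the WT mean, with an interval of 274 to 3877. Small recovered counts in this table are mostly multiples of 3, and counting in units of 3 widens the intervals to 241 to 20022.5 and 144 to 31583.5, all for counting error only. The fitted log2 fold changes, 9.26 (SE 0.49) and 9.39 (SE 0.54), depend on the pseudocount of 1. THBS2 lies at chr6:169215785-169254071 on the minus strand, and LOC101929523, which overlaps 23781 bases of it, read 35.0, 43.0 and 36.5 normalized counts on average in G2, SCR and WT, without a call in G2/SCR or G2/WT.

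THBS3, of the pentameric subgroup, was expressed in every line. It read 5947, 6465 and 6286 normalized counts in G2, 2623, 2477 and 2601 in SCR and 2899 and 2636 in WT. G2 did not overlap the controls, and its mean was 2.43 times that of SCR and 2.25 times that of WT. The log2 fold changes were 1.28 (SE 0.06) and 1.17 (SE 0.07). THBS3 (chr1:155195588-155209178) shares 484 bases with MTX1, a mitochondrial outer membrane gene on the opposite strand that was at 3056, 2687 and 3809 normalized counts in G2, SCR and WT and was not called in either G2 comparison. The entry named SLC50A1 spans the whole of THBS3, and how the counting shared reads between them is not given in the sources used here.

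THBS1, the other trimeric thrombospondin and an activator of latent TGF-beta, read 3.76 normalized counts (4 recovered counts) in G2 replicate 1 and 0 in the other 7 libraries. A library's floor of 3 counts corresponds to 2.27 to 3.72 normalized counts, so G2 replicate 1 alone lay above it, by 1 recovered count, and no fold is given against controls listed at 0. In G2 the close paralogues THBS2 and THBS1 were at 186 and 0.137 normalized counts per kb of exon, the latter from 4 recovered counts.

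TNC, tenascin-C, a glycoprotein of embryonic and wound matrix that weakens adhesion to fibronectin, showed the largest difference from SCR among the 5 genes above the floor in all 3 lines. It read 14314, 14430 and 13832 normalized counts in G2, 1617, 1583 and 1661 in SCR and 1877 and 2048 in WT. The G2 values lay far above all 5 controls, while the controls lay close to each other without overlapping. The G2 mean was 8.76 times that of SCR and 7.23 times that of WT, with log2 fold changes of 3.13 (SE 0.06) and 2.85 (SE 0.06). TNC lies at chr9:115019575-115118160 on the minus strand.

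FBLN1, fibulin-1, a calcium-binding glycoprotein of elastic fibres and basement membranes, was the most abundant of the 9 in both controls per exon length. Its normalized counts were 17396, 18757 and 18835 in G2, 8706, 7986 and 8484 in SCR and 14711 and 12886 in WT. The 3 lines did not overlap, but WT lay nearer to G2 than to SCR. The G2 mean was 2.18 times that of SCR (log2 fold change 1.13, SE 0.06) and 1.33 times that of WT (0.41, SE 0.07), and only the first passed the fold limit.

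FN1, fibronectin, and POSTN, periostin, were at the floor. FN1 read 2.27 normalized counts (3 recovered counts) in SCR replicate 3 and 0 in the other 7 libraries. POSTN was listed at 0 in all 8. For counting error only, a count of 0 allows up to 3 counts, or 2.27 to 3.72 normalized counts per library. The high TNC level of G2 thus stood beside an FN1 entry of no more than 3 counts in any library. An unnamed entry that overlaps 767 bases of FN1 read 2.98 to 16.6 normalized counts per library.

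Levels of different genes are compared per kb of exon (the union of GENCODE 44 exons). In G2 the order was SPARC with 5928 ± 52.5 normalized counts per kb (SD, n = 3), FBLN1 with 2516 ± 111, TNC with 1480 ± 33.1, THBS3 with 1348 ± 56.9, THBS2 with 186 ± 7.91 and SPOCK1 with 112 ± 5.56. In SCR the order was FBLN1 with 1152 ± 50.7, SPARC with 867 ± 38.2, THBS3 with 555 ± 17.0, TNC with 169 ± 4.08 and SPOCK1 with 47.8 ± 2.54. WT had the SCR order, with 1894 ± 177 for FBLN1 (SD, n = 2), 683 ± 1.97 for SPARC, 599 ± 40.3 for THBS3, 205 ± 12.6 for TNC and 73.5 ± 9.94 for SPOCK1. SPARC thus lay above FBLN1, and TNC above THBS3, in G2 only. THBS2 was last in both controls. All neighbours in these orders differed by more than the sum of their SDs, and the SDs do not cover differences in how well each transcript is sampled.

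**Figure D2:**
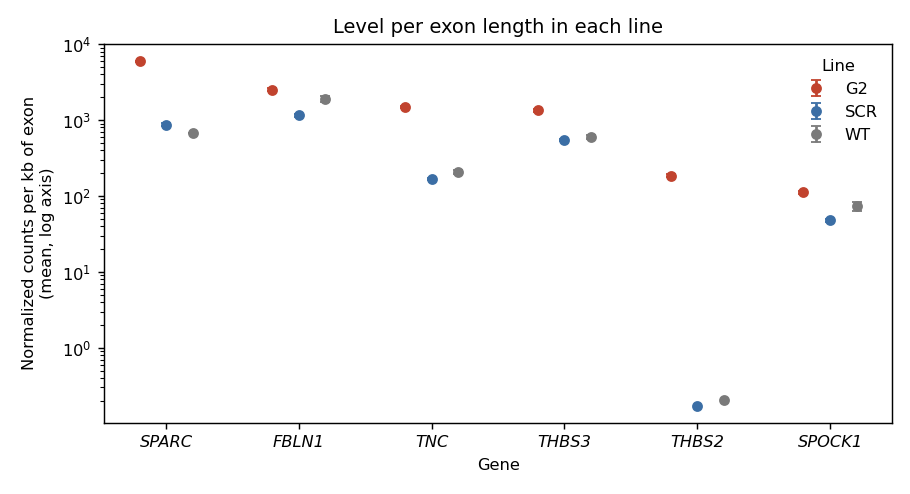
Mean normalized counts per kb of exon in each line on a log axis, with SD bars (3 G2, 3 SCR and 2 WT libraries; no bar for THBS2 in SCR and WT, whose means rest on 4 and 3 recovered counts). SPARC is highest in G2 at 5928 per kb, and FBLN1 is highest in both controls.

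Between the controls, SCR and WT, 2 of the 6 genes differed by at least 1.5-fold in size, both lower in SCR, where 16.3% of all genes were called (10.7% higher and 5.63% lower). THBS2 is 1 of the 6 only through its G2 level. These were SPOCK1, with a log2 fold change of -0.61 (SE 0.11), and FBLN1, with -0.72 (SE 0.07). SPARC was at 0.34 (SE 0.06), TNC at -0.28 (SE 0.06) and THBS3 at -0.11 (SE 0.07), all below the fold limit. These small differences depend on how the libraries are scaled. With libraries scaled to the same total, which moved the median of all genes from 0.01 to 0.28 in SCR/WT, SPOCK1 was at -0.34, FBLN1 at -0.44, SPARC at 0.62, TNC at 0.00 and THBS3 at 0.17. The SPOCK1 difference also was -0.57 without SCR replicate 2 and -0.48 without WT replicate 2, short of the fold limit. The share of the calls that were higher in SCR moved from 65.6% to 90.6% with that scaling. The same scaling moved the median of all genes to -0.10 against SCR and 0.19 against WT for G2, and the 6 genes stayed between 1.04 and 9.22 and between 0.60 and 9.45.

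**Figure D3:**
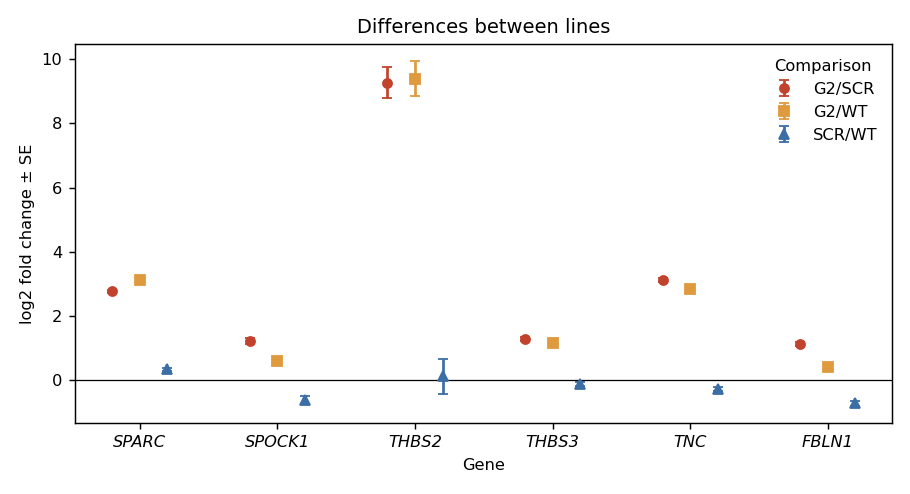
Log2 fold change with SE for the 6 genes in the fit, in G2/SCR, G2/WT and SCR/WT. All 6 are above 0 in both G2 comparisons, from 0.41 for FBLN1 in G2/WT to 9.39 for THBS2 in G2/WT, whose size depends on the pseudocount of 1 since its control values are near 0.

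The other members of these families were then examined in a list of 40 genes taken by family. Of these, 26 passed the filter on low values and 6 were listed at 0 in all libraries. Since a gene could pass through G2 alone, the counts describe the genes that passed. In G2/SCR 19 rose and 4 fell, beside 15.1% and 11.8% of all genes, with 18 and 3 also past an adjusted p of 0.05. Of the 19 rises, 8 were fibril and microfibril glycoproteins, 1 a CCN gene and 1 of the SPP1 family, where 0 fell. In the families of the 9 genes, 3 rose and 1 fell in the SPARC family, and 1 rose and 1 fell among thrombospondins. Among tenascins 0 rose and 2 fell, among fibulins and hemicentins 4 rose and 0 fell, and the 1 fasciclin gene rose. In G2/WT 16 rose and 3 fell, beside 17.7% and 12.2%, all past the adjusted threshold. The controls differed too, with 8 of the 26 higher and 7 lower in SCR/WT, or 57.7% called beside 16.3% of all genes. The median over these relatives was 1.19 on the log2 scale against SCR and 1.05 against WT, beside -0.01 and 0.00 over all genes tested.

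Of the SPARC family, FSTL1, a secreted follistatin-like glycoprotein, rose from 2648 ± 91.6 normalized counts in SCR and 1556 ± 132 in WT to 9517 ± 207 in G2 (log2 fold change 1.85, SE 0.06, and 2.61, SE 0.07). SPARCL1, the closest relative of SPARC, read 276 ± 47.7 in G2, 60.8 ± 12.1 in SCR and 3.23 ± 1.05 in WT, so that SCR too was higher than WT (log2 fold change 3.88, adjusted p = 1.8e-06). SMOC1, a BMP-modulating member, fell to 2.19 ± 3.79 in G2 from 26.8 ± 13.4 in SCR and 31.0 ± 15.8 in WT. SMOC2 was at 33.7 ± 12.9, 14.9 ± 5.44 and 12.3 ± 1.94, and its call against SCR, at an adjusted p of 0.059, was lost without G2 replicate 2 or 3 (log2 fold change 1.02 and 0.86) and without SCR replicate 1 or 3 (1.10 and 0.85). Its call against WT was lost without G2 replicate 2 or 3 or WT replicate 2 (1.23, 1.07 and 1.17). SPOCK2 was called only against WT, at 610 ± 27.3 in G2, 589 ± 27.2 in SCR and 398 ± 12.2 in WT, and that call was lost without WT replicate 1 (log2 fold change 0.58). SPOCK3 was not called.

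Thrombospondins and tenascins did not move in 1 direction. COMP, the cartilage thrombospondin, rose to 69.0 ± 11.7 in G2 from 11.9 ± 3.01 in SCR and 25.2 ± 4.75 in WT. THBS4, the other pentameric relative, fell to 40.7 ± 10.2 from 155 ± 5.33 and 103 ± 8.46 (log2 fold change -1.93, SE 0.20, and -1.35, SE 0.23). TNR, the tenascin of perineuronal nets, read 17.9, 17.5 and 26.9 normalized counts in G2, 228, 204 and 232 in SCR and 42.2 and 58.6 in WT. It fell in G2 against both (adjusted p = 1.9e-07 and 0.0017), but SCR was itself higher than WT. TNXB was at 46.0 ± 11.6, 78.2 ± 29.5 and 62.3 ± 7.35, and its call against SCR missed the adjusted threshold (adjusted p = 0.062). The call was also lost without G2 replicate 1 or 3 (log2 fold change -0.54 and -0.72) and without SCR replicate 1 or 2 (-0.44 and -0.74).

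CCN1, an integrin-binding matricellular protein and a well-known early response gene, read 3368, 3037 and 2651 normalized counts in G2, 395, 371 and 457 in SCR and 160 and 128 in WT. The 3 lines did not overlap, with log2 fold changes of 2.88 (SE 0.12) in G2/SCR and 4.38 (SE 0.13) in G2/WT. SCR was itself higher than WT (adjusted p = 8.6e-06). CCN1 was the only CCN gene in the fit. CCN2, CCN3, CCN5 and CCN6 were listed at 0 in all libraries, as were EFEMP1 and IBSP, and CCN4 did not exceed 4.70. TGFBI, the fasciclin relative of POSTN, rose to 96.6 ± 9.20 in G2 from 7.19 ± 5.64 in SCR and 1.49 ± 2.11 in WT. SPP1, osteopontin, rose to 114 ± 22.8 from 51.8 ± 25.7 and 35.9 ± 20.9.

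Among the fibulins, EFEMP2 (fibulin-4), needed for elastic fibre assembly, rose to 4167 ± 182 in G2 from 715 ± 26.4 in SCR and 1103 ± 125 in WT, with log2 fold changes of 2.54 (SE 0.08) and 1.92 (SE 0.08). FBLN2 rose to 421 ± 15.7 from 227 ± 13.5 and 97.8 ± 18.9. FBLN7 and HMCN2, like FBLN1, were called against SCR but not against WT. Unlike FBLN1, both were highest in WT. FBLN7 read 698 ± 18.9 in G2, 340 ± 19.3 in SCR and 744 ± 0.07 in WT, and HMCN2 read 481 ± 46.3, 283 ± 8.27 and 580 ± 67.1. Both were lower in SCR than in WT (log2 fold change -1.13 and -1.03).

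Of the elastic fibre and microfibril genes, FBN1, fibrillin-1, rose to 7490 ± 269 in G2 from 1448 ± 156 in SCR and 1144 ± 147 in WT. VTN, vitronectin, a serum adhesive protein, read 840, 952 and 898 normalized counts in G2, 66.3, 89.2 and 89.9 in SCR and 45.9 and 43.7 in WT, with log2 fold changes of 3.45 (SE 0.15) and 4.29 (SE 0.17). The latent TGF-beta binding genes LTBP1, LTBP2 and LTBP3 rose in both comparisons, LTBP1 most, to 860 ± 20.1 from 109 ± 4.51 and 55.4 ± 2.48. LTBP2 reached 2861 ± 208 from 1070 ± 50.7 and 617 ± 61.2, and LTBP3 reached 1755 ± 130 from 696 ± 40.8 and 1077 ± 118. LTBP4, at 1074 ± 192, 825 ± 83.9 and 853 ± 95.3, was not called. EMILIN1 rose to 18503 ± 2627 from 7852 ± 425 and 10753 ± 1705. MFAP2 and ELN, elastin, were called against SCR only. MFAP2 read 49636 ± 2920, 22454 ± 734 and 38360 ± 4105 in G2, SCR and WT, and ELN read 7091 ± 131, 4440 ± 162 and 9880 ± 638, so that ELN was highest in WT.

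Of the 15 receptors and binding partners listed for these proteins, 12 passed the filter and ITGA8 and PTPRZ1 were listed at 0 in all libraries. In G2/SCR 11 rose and 0 fell, beside 15.1% and 11.8% of all genes, and in G2/WT 9 rose and 0 fell, beside 17.7% and 12.2%, by limma and also past an adjusted p of 0.05. At an unadjusted p under 0.05 and with no fold limit 1 gene, ITGB5, was lower in both, and DESeq2 and edgeR on recovered counts also called 11 higher and 0 lower in G2/SCR. In SCR/WT 1 was higher and 3 were lower, beside 10.7% and 5.63%. The median over these receptors was 1.31 on the log2 scale against SCR and 1.38 against WT.

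ITGB3, partner of ITGAV in the receptor that binds TNC, THBS1 and VTN, read 173, 257 and 260 normalized counts in G2, 28.6, 26.3 and 41.6 in SCR and 54.6 and 35.7 in WT (log2 fold change 2.81, SE 0.26, and 2.33, SE 0.29). ITGAV rose to 5758 ± 80.7 from 3044 ± 211 in SCR and 3671 ± 1249 in WT, and the change against WT was 0.69, but 0.34 and not called without WT replicate 1. CD36, a scavenger receptor that binds the trimeric thrombospondins, was at 47.1 ± 14.2 in G2 against 13.5 ± 4.52 and 6.58 ± 6.50, and CD47 rose to 2164 ± 69.0 from 1130 ± 48.5 and 1251 ± 73.0. SDC4, syndecan-4, a coreceptor for fibronectin, rose to 6219 ± 445 from 990 ± 119 and 952 ± 21.9 (6.28 and 6.53 times the SCR and WT means).

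The fibronectin receptor subunit ITGA5 read 589, 555 and 522 normalized counts in G2, 64.3, 46.9 and 34.0 in SCR and 3.72 and 16.9 in WT, with log2 fold changes of 3.54 (SE 0.40) and 5.92 (SE 0.44). FN1 itself was at the floor in the same libraries. ITGA4, which also binds fibronectin, rose to 2561 ± 91.1 from 321 ± 14.1 and 590 ± 94.4, and the common partner ITGB1 to 44965 ± 1443 from 18527 ± 597 and 20953 ± 1905. LRP1, the endocytic receptor that clears thrombospondins, rose to 407 ± 69.7 from 161 ± 31.2 and 133 ± 57.0. ITGA9, a TNC receptor subunit, at 2862 ± 68.3, 1777 ± 114 and 3344 ± 672, and CALR, calreticulin, at 56086 ± 2149, 31037 ± 642 and 49564 ± 1574, were called against SCR only. ITGB5, at 1006 ± 64.5, 1144 ± 46.9 and 1496 ± 130, was not called.

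**Figure D4:**
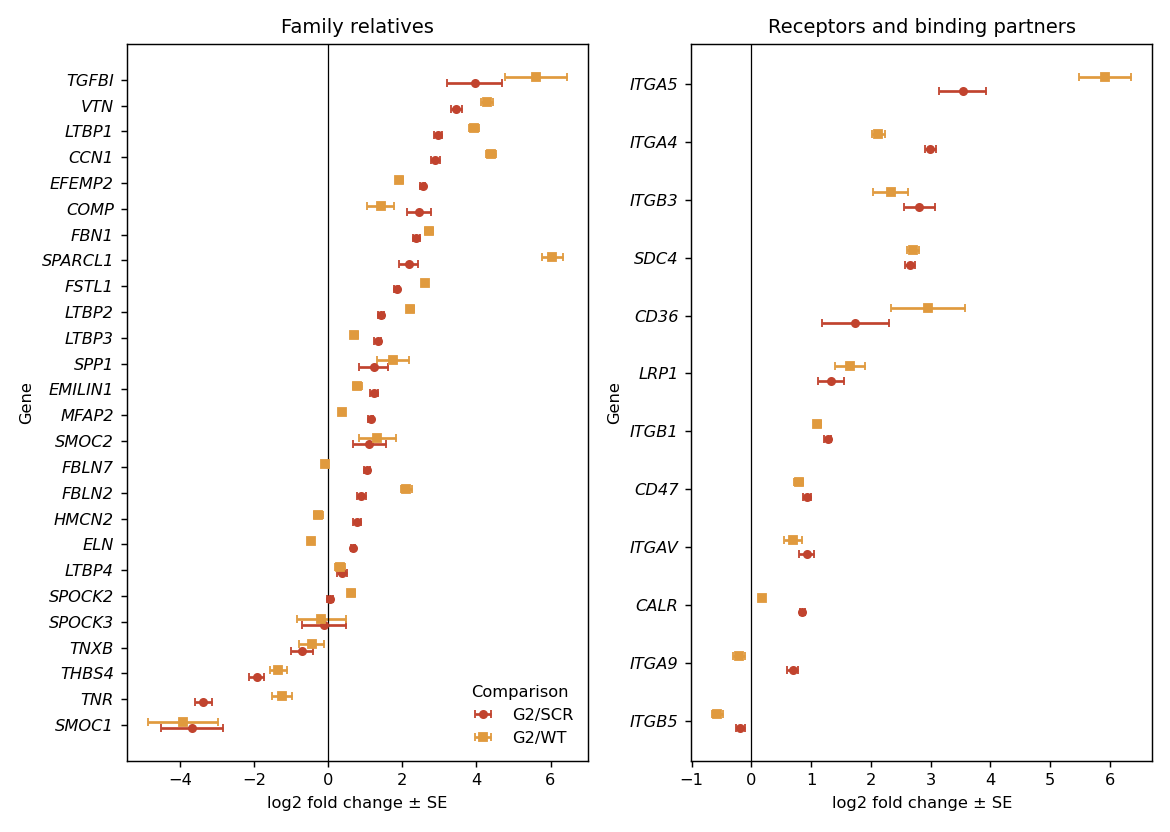
Log2 fold change with SE in G2/SCR and G2/WT for the 26 relatives and the 12 receptors and binding partners in the fit, each panel sorted by G2/SCR. Most genes lie right of 0, while SMOC1, TNR, THBS4, TNXB, SPOCK3 and ITGB5 lie left of it in both comparisons and ELN, HMCN2, FBLN7 and ITGA9 lie right of it only in G2/SCR.

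The neighbours of the 9 genes on the chromosome were measured in the same way, with hg38 positions from the table. The 5 nearest tested genes on each side of each gene gave 90 neighbours. Of these, 15 rose and 8 fell in G2/SCR (25.6%), and 18 rose and 9 fell in G2/WT (30%), near the 26.9% and 29.9% of all genes. The median log2 fold changes of the neighbours were -0.03 and 0.06.

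Around TNC the next tested gene upstream of its start, PAPPA, a metalloprotease, rose to 261 ± 1.98 normalized counts from 53.9 ± 10.8 in SCR and 40.0 ± 3.85 in WT, with the gene midpoints 1209 kb apart, while TMEM268 on the other side was not called. Next to THBS3, MUC1, a membrane mucin, read 810, 724 and 747 in G2, 394, 339 and 497 in SCR and 381 and 288 in WT. Beside SPOCK1, SMIM32 read 36.7, 26.3 and 37.6 in G2, 0, 0 and 7.56 in SCR and 0 and 2.98 in WT, and KLHL3 rose to 47.8 ± 1.54 from 18.2 ± 6.62 and 17.8 ± 1.23. Beyond the start of THBS2, the next tested entry, which has no symbol, was higher in G2 than in WT (51.5 ± 3.84 against 14.6 ± 3.16) and at 40.8 ± 9.73 in SCR. The family relatives TGFBI and SMOC2 were also among the neighbours, of SPOCK1 and THBS2. Next to FN1, TMEM169 fell in G2/SCR (1063 ± 79.6 against 1765 ± 84.7), and next to THBS1, RASGRP1 fell in G2/WT (38.2 ± 6.59 against 77.5 ± 4.19).

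**Figure D5:**
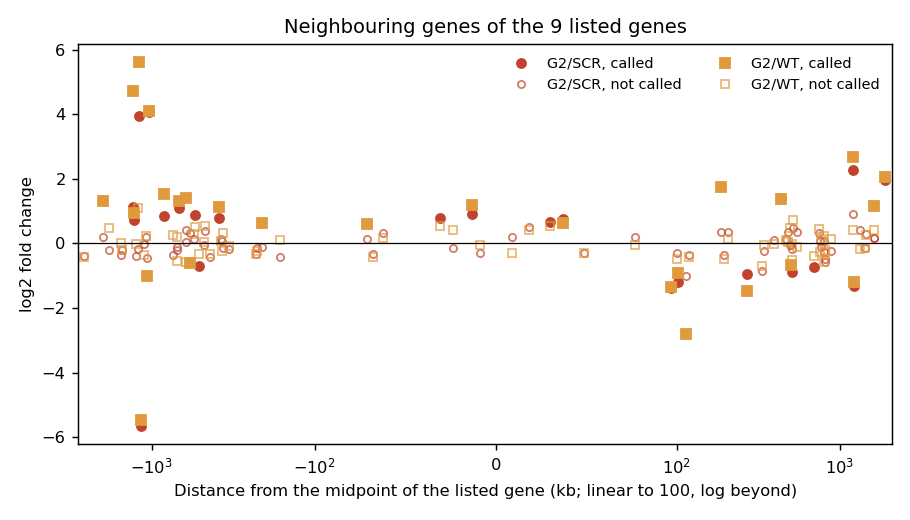
Log2 fold change of the 90 neighbouring genes in G2/SCR and G2/WT against the distance of their midpoint from that of the listed gene (kb, linear to 100 and log beyond; negative values are at lower coordinates). Filled points were called, and points on both sides of 0 occur at short and long distances.

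For 5 of the 6 genes, the genes with the most similar profile over the 8 libraries (Pearson's r of log2 values, among genes averaging 100 or more with a like range) are given as a description, since all rest on the same 3 lines. For SPARC they were PLAT (r = 1.00), ARHGAP6 and FOSL2 among 170 candidates, with PLAT at 5135 ± 226 in G2, 574 ± 28.0 in SCR and 440 ± 7.23 in WT. For TNC they were SPRY1, MCAM and CD68 among 169 candidates, with SPRY1, a feedback inhibitor of receptor tyrosine kinase signalling, at 14046 ± 241, 1533 ± 123 and 1879 ± 99.99. For THBS3 they were PLOD1, CKAP4 and SPATS2L, and for SPOCK1 ASMTL, CDKN1B and TPM4. For FBLN1 they were PCOLCE, MFAP2 and COLEC11, of which PCOLCE and MFAP2 act in collagen and microfibril assembly. PCOLCE read 43895 ± 1769 in G2, 20551 ± 851 in SCR and 33661 ± 3331 in WT, lowest in SCR, as FBLN1 was. THBS2 had no candidate with a like range.

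Markers of the cell state moved in the same libraries. Of 11 adrenergic neuroblastoma markers 8 fell against SCR and 7 against WT, beside 11.8% and 12.2% of all genes. Their summed level was 260594 to 264228 normalized counts in G2, 360357 to 368933 in SCR and 316947 to 329880 in WT. STMN2 made up most of the G2 sum and was not called, at 165517, 170244 and 116782 normalized counts in G2, SCR and WT, nor was GATA3, at 18206, 14129 and 14963. Of 13 fibroblast and mesenchymal markers 11 passed the filter and 8 rose in both comparisons, beside 15.1% and 17.7% of all genes. PRRX1, 1 of the 8, averaged 30.5 in G2 and 0 in SCR and WT and passed the filter through G2 alone. The counts thus describe the genes that passed. The controls differed too, with 4 of the 11 higher and 0 lower in SCR/WT, beside 10.7% and 5.63% of all genes. These 4 were CD44, LUM, DCN and FAP, whose SCR means were 2.15, 3.46, 6.32 and 12.2 times the WT means. Of the adrenergic markers 1, ELAVL4, was higher in SCR/WT and 0 were lower. The summed level of the 13 mesenchymal markers was 319970 to 324176 in G2, 133543 to 140944 in SCR and 104540 to 118355 in WT. VIM made up most of the G2 sum, at 214430 in G2, 85197 in SCR and 59180.5 in WT, and TWIST1, at 21105, 27740 and 26687, was not called. PDGFRA, at 1439, 1454 and 1765, and PDGFRB, at 2912, 2355 and 2911, were not called either. PDPN of this list was listed at 0 and TWIST2 did not exceed the floor. Of the markers of other cell types, SOX10, PECAM1 and CD3E were listed at 0 in all libraries and PTPRC was at a mean of 1.07 in G2 and 0 in the controls. The glial marker S100B was at 162, 484 and 422 in G2, SCR and WT. The epithelial markers EPCAM, at 41.9, 68.2 and 40.8, CDH1, at 47.8, 51.2 and 84.4, and KRT18, at 45.9, 30.7 and 0.993, were also detected. The sums were 170 to 267 for Schwann and glial markers in G2, against 387 to 599 in SCR and 428 to 464 in WT, and 27.4 to 59.3 for endothelial markers in G2, 5.10 to 18.1 in SCR and 0 to 34.7 in WT. For leukocyte markers the sum was 666 to 735 in G2, 58.2 to 70.4 in SCR and 73.3 to 100.3 in WT, almost all of it CD68. Epithelial markers summed to 143 to 153, 150.02 to 160 and 102 to 150.2, and muscle markers to 22.6 to 37.6, 9.82 to 27.2 and 0 to 9.93. The part of the shift in cell state in the values of the 9 genes was not tested, and in these bulk libraries more cells of a type and more RNA per cell cannot be told apart.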

How the data were processed

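RNA-seq of polyadenylated RNA was analysed in 8 SH-SY5Y libraries, assigned to G2, SCR and WT by their labels, with no column left unassigned. The authors mapped paired reads to hg38 with STAR 2.7.5a, counted them with featureCounts (Subread 1.5.0) on FAST DB genes and normalized them with DESeq2. The deposited signal is a normalized count per gene and library, not scaled to length. The strand setting and the treatment of reads matching several genes are not given in the sources used here.

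The design allowed for raw counts, and since the values are normalized counts limma 3.58.1 (R 4.3.3) was fitted to log2(value + 1) of the 18947 genes averaging 10 or more, with 1 mean per line and a mean trend. Fold changes are on that scale and understate those of low genes. A call needed a 1.5-fold change and an unadjusted p no higher than 0.05, and Benjamini-Hochberg adjustment ran over all genes tested. The libraries are labelled as biological replicates. P-values measure only the spread between libraries of a line and not between independently edited lines.

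All values are whole multiples of a step per library (tolerance 0.01), which gave counts for 100.00% of values. For G2/SCR these went into DESeq2 1.42.0 and edgeR 4.0.16, which called 4973 and 5093 genes. The step of WT replicate 2, at 0.993, was close to 1, and 100% of its values were whole multiples of it. Between 71.3% and 75.6% of small counts were multiples of 3, so intervals and floors (3 counts) cover counting error only. Exon lengths came from GENCODE 44, whose coordinates overlapped those of the table for 64 of 64 listed genes.

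The 9 genes and all lists were chosen with earlier results of these data known. The text names every one of the 9 genes, each tested relative or receptor that was called in a G2 comparison or reached 1000 in a line, and neighbours that overlap or lie next to a listed gene and were called. It also names the 3 most alike genes within a log2 range of 0.5. The 9 listed genes are counted by the fold limit alone. TMEM268, CCN4, SPOCK3, genes listed at 0 and marker genes were named after their values were seen. Other pseudocounts, filters, scalings, thresholds, replicate blocks and leaving out each library were tried as alternatives.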

Additional observations from a re-analysis of the deposited data

How the results depend on the processing

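All 6 listed genes in the fit kept the sign of their G2/SCR and G2/WT differences under every alternative run. Every run used libraries whose values were known when the genes were chosen, so this describes the processing only. PRPF40B kept its calls, with -0.99 to -0.93 in G2/SCR, -1.19 to -0.95 in G2/WT and -0.23 to 0.01 in SCR/WT when single libraries were left out. Of 300 alternative log2 fold changes of the listed genes 40 moved by more than the spread between replicates, and of 224 alternative counts 12 moved by over 1.5 times. Under a mean of at least 100, which tests fewer genes, 13 neighbours passed against SCR and 14 against WT. Under a fold change of at least 2, the calls fell to 7 receptors and 11 neighbours in G2/SCR. In SCR/WT they fell to 8 relatives, 1 receptor and 3 neighbours, and 0 listed genes reached that size. With libraries scaled to the same total, 22 neighbours were called in SCR/WT. Of the listed genes, SPARC then passed the fold limit in SCR/WT at 0.62 and FBLN1 in G2/WT at 0.60. SPOCK1 (-0.34) and FBLN1 (-0.44) fell short of it in SCR/WT.

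With single libraries left out, FBLN1 ran from -0.81 to -0.62 in SCR/WT and stayed past the fold limit. SPOCK1 fell short of it without SCR replicate 2 (-0.57) or WT replicate 2 (-0.48). Neighbours called in SCR/WT ran from 9 to 16, the latter without WT replicate 2. THBS2 in SCR/WT ran from -0.87 to 1.12 as WT replicate 1 or 2 was left out, and in G2/SCR from 7.76 to 10.1 over all alternatives, since its control values are near 0.

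The labels do not state that their replicate numbers pair the libraries. Same-numbered libraries correlated from -0.17 to 0.15 in their deviations from the line means, and differently numbered ones from -0.20 to 0.17. With 2 or 3 libraries per line the deviations of a line cancel, so these values cannot settle pairing. A replicate block by the numbers of the labels called 5059, 5644 and 3057 genes in G2/SCR, G2/WT and SCR/WT, against 5088, 5657 and 3097 without it. A replicate block by the library numbers called 5089, 5626 and 2844. Among the listed genes, THBS1, THBS2 in the controls, FN1 and POSTN were at or near the floor of 3 counts. Some relatives were also low, with means of 2.19 normalized counts for SMOC1 in G2, and 1.49 for TGFBI and 3.23 for SPARCL1 in WT. Of 86 ribosomal protein symbols, 3 were listed at 0 in every library. Whether a listed 0 reflects depth, the annotation or the counting was not tested.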
